A study of Rattus norvegicus with 8 samples.

Results

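Gluconeogenesis enzymes and regulators were followed in rat liver through 10 genes, of 14217 genes measured. The members were taken as every probe set (the group of array probes that together measure a transcript) whose platform annotation names exactly 1 gene symbol, that symbol being Pc, Pck1, Pck2, Fbp1, Slc37a4, Ppargc1a, Foxo1, Irs2, Gpd1 or Gpd2. This gave 17 probe sets: 3 each for Ppargc1a and Foxo1, 2 each for Pck2, Gpd1 and Gpd2, and 1 for each of the other genes. Liver RNA was measured on 8 Affymetrix arrays, 4 for the iron-deficient diet and 4 for the control diet. All rats were male Sprague-Dawley animals, an outbred strain, aged 7 weeks at sampling. The iron-deficient diet lacked ferric citrate and otherwise matched the control diet, an AIN93G formula with Avicel in place of cellulose. Livers were taken on day 17 of the diets from animals that had been refed for 1.5 h, after 4 days on a daytime feeding schedule. The iron-deficient diet was given to 7 rats and the control diet to 6, and the labels do not say which of them gave the arrays. Per the labels, blood hemoglobin of the iron-deficient group had reached 42% of the control level.

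Gluconeogenesis makes glucose from lactate, amino acids and glycerol, mainly in hepatocytes, and shares its reversible steps with glycolysis. Its own steps are the carboxylation of pyruvate (Pc), the formation of phosphoenolpyruvate (Pck1 in the cytosol, Pck2 in mitochondria), the hydrolysis of fructose bisphosphate (Fbp1) and, in the endoplasmic reticulum, the hydrolysis of glucose 6-phosphate that Slc37a4 carries there. Fasting and glucagon raise transcription of the pathway through cAMP and the coactivator that Ppargc1a encodes, and insulin, signalling through Irs2, holds the transcription factor of Foxo1 out of the nucleus. Gpd1 and Gpd2 link glycerol 3-phosphate to the pathway and carry reducing equivalents into mitochondria.

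Of the 17 probe sets, 16 had a lower mean in iron-deficient livers, and Pck1 alone had a higher one. Of all probe sets on the array, 50.4% were lower. Both probe sets of Pck2, that of Slc37a4 and 1 of the 2 for Gpd2 were lower in every iron-deficient liver than in any control liver. These 4 of 17 probe sets compare with 3.41% of all probe sets whose groups were separate in that direction. No member passed the threshold of an adjusted p of 0.05 in limma, a linear model fitted across all probe sets with Benjamini-Hochberg adjustment, a threshold that 0.0322% of all probe sets passed. At an unadjusted limma p under 0.05 there were 7 members, all lower, for Pc, Pck2, Slc37a4, Gpd1 and Gpd2, against 6.20% of all probe sets that were lower at that level. The members share livers and, in part, genes, and were chosen with earlier results of these data known, so their counts are a description. With iron-deficient replicate 1 left out, 8 member probe sets had separate groups, all lower in iron-deficient livers, against 6.05% of all probe sets. The added members were Pc, Gpd1 1371363_at, Ppargc1a 1393743_at and Foxo1 1376779_at. Leaving out each array in turn gave counts from 4 to 8, so the count without that replicate is the highest of them.

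The counts moved with the scaling of the arrays, for the members and for the array as a whole. As deposited, 4 members had separate groups in either direction, against 6.48% of all probe sets. Quantile normalization gives every array the same distribution of values. Under it 7 of 17 members were lower, against 47.8% of all probe sets, and 2 had separate groups (Pck1 and Fbp1, both higher), against 6.45%. With Hamp removed before that step 13 of 17 were lower, against 61.1%, and no member had separate groups, against 3.01%. Centring each array on its median adds 5.06e-05 to every difference, many times the median absolute difference of 4.49e-06, and adds the spread of the medians (7.1195 to 7.1205) to the values. That constant by itself fixes which small differences change sign: 10 of 17 members were then lower, against 7.93% of all probe sets, and no member had separate groups, against 0.573%. Hamp, the hepcidin gene, held rank 1 on every control array and ranks from 1471 to 17735 on iron-deficient arrays. The Pck1 difference was positive under all of these scalings. Negative under all of them were Pck2 1375213_at, both Gpd2 probe sets, Irs2, Ppargc1a 1393743_at and Foxo1 1376779_at. Median centring could not turn any of these or Pck1. The constant it adds is smaller than each of these negative differences and has the sign of the Pck1 difference. Slc37a4 turned higher under quantile normalization and was lower under the other scalings.

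**Figure D1:**
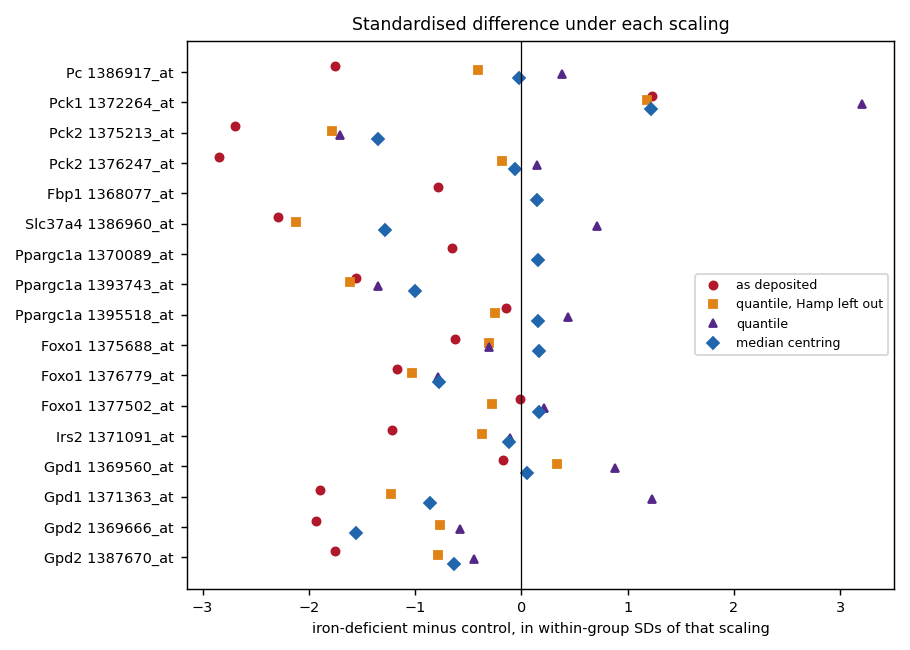
Difference between iron-deficient and control livers (horizontal axis, in within-group SDs of each scaling) for the 17 member probe sets (rows), with the values as deposited and under 3 other scalings (symbols). Most points lie nearer 0 when the arrays are rescaled, but Pck1 lies farther out under quantile normalization (3.21). With Hamp left out Pck1 lies at 1.18, near its deposited 1.23. Fbp1 and a Ppargc1a probe set have no point in either quantile setting, because they had no spread within groups.

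Values were deposited as log2, and the spread between arrays was very small, by an amount that varied widely between probe sets. The within-group SD of the members ran from 1.02e-06 to 0.00151, a span of 1476-fold. How the values came to this scale is not stated in the labels or headers, so a difference is not read as a fold, and sizes at different probe sets have no common measure. Differences are printed as iron-deficient minus control with their SE, and also after division by the within-group SD (the standardised difference). Where a gene has more than 1 probe set, each is called by its number on the array.

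**Figure D2:**
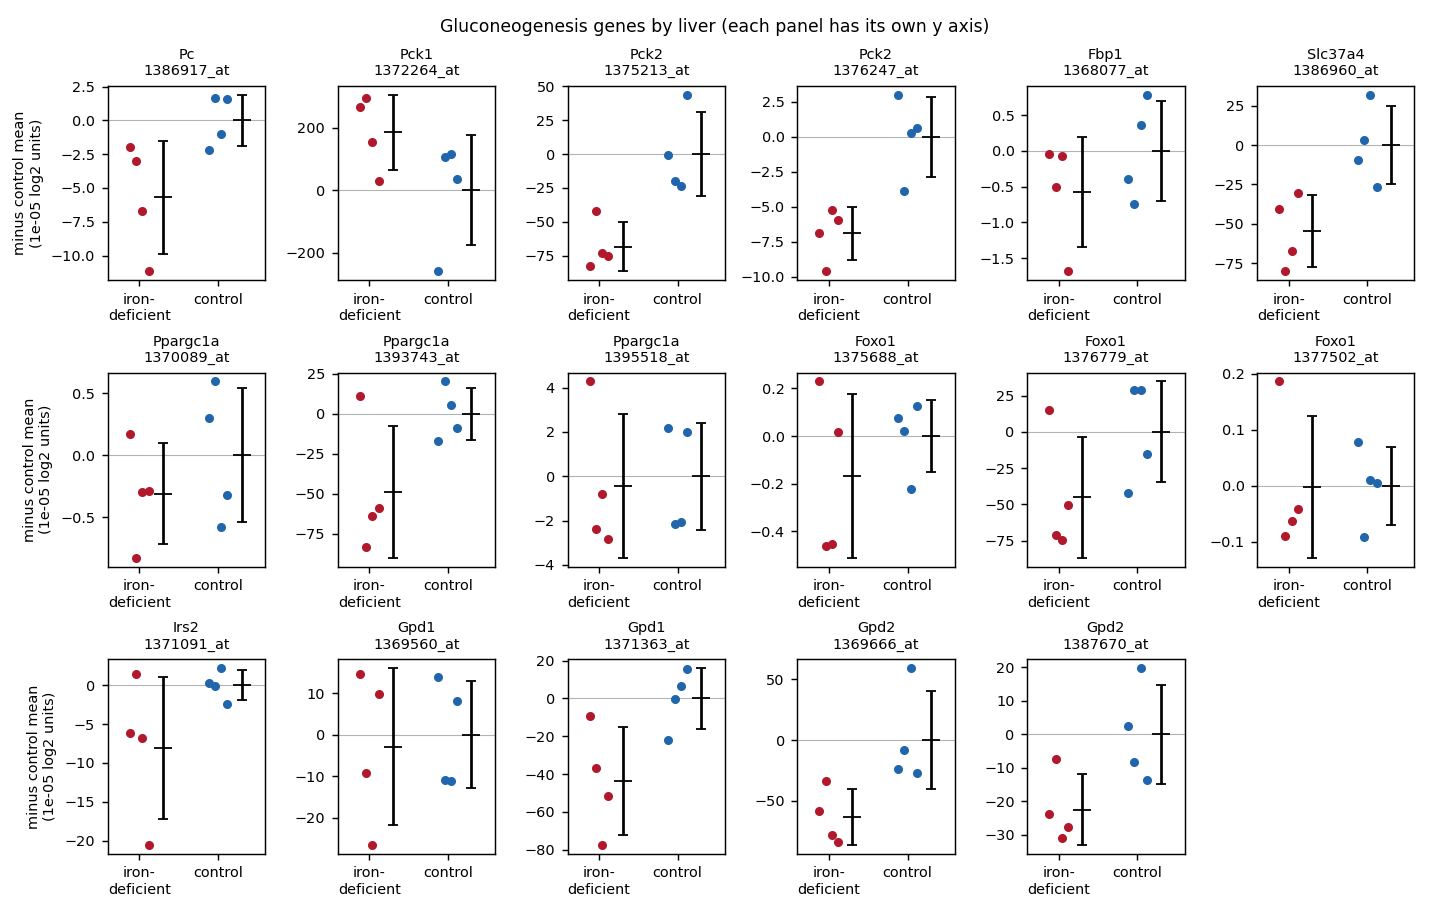
Deposited log2 values of the 17 member probe sets, drawn as the difference from the control mean in units of 1e-05 (vertical axes, a separate scale for each panel), for iron-deficient livers (red points, left) and control livers (blue points, right). The bar beside each group is its mean with SD (n = 4). The groups are separate in both Pck2 panels, in Slc37a4 and in Gpd2 1369666_at. Iron-deficient replicate 1 is the highest red point in all 6 panels of Ppargc1a and Foxo1, and also in Pc, Fbp1 and both Gpd1 panels.

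Pyruvate enters the pathway through Pc, the biotin-dependent pyruvate carboxylase of mitochondria. Its probe set read 10.40292, 10.40290, 10.40287 and 10.40282 in iron-deficient livers, against 10.40291, 10.40295, 10.40292 and 10.40295 in control livers. Iron-deficient replicate 1 lay within the control range and the other 3 below all controls. The difference was -5.70e-05 ± 2.19e-05 (SE), a standardised difference of -1.76, with a limma adjusted p of 0.407 and an unadjusted p of 0.0374. It became 3.48e-04 under quantile normalization.

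The phosphoenolpyruvate carboxykinases had mean differences of opposite sign, neither of them called. Pck1, the cytosolic form, read 11.26674, 11.26703, 11.26562 and 11.26438 in iron-deficient livers, against 11.26149, 11.26514, 11.26525 and 11.26445 in control livers. Iron-deficient replicates 1, 2 and 3 lay above all controls, replicate 4 lay between them, and control replicate 1 was the lowest of the 8. The difference was 0.00186 ± 0.00102 (SE), with a 95% interval from -5.90e-04 to 0.00430 and a standardised difference of 1.23. It was not called (limma adjusted p = 0.557, unadjusted p = 0.115), and without control replicate 1 it was 9.93e-04.

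Pck2, the mitochondrial form, had 2 probe sets. Probe set 1375213_at read 7.77842, 7.77883, 7.77852 and 7.77850 in iron-deficient livers, against 7.77925, 7.77906, 7.77901 and 7.77969 in control livers. All 4 iron-deficient livers lay below all 4 controls. The difference was -6.83e-04 ± 1.71e-04 (SE), a standardised difference of -2.70 (95% interval -4.32 to -1.08), with a limma adjusted p of 0.248 and an unadjusted p of 0.00598. Probe set 1376247_at read 7.05003, 7.05001, 7.05005 and 7.05004 in iron-deficient livers, against 7.05013, 7.05006, 7.05010 and 7.05011 in control livers. Here, too, the groups were separate, with a difference of -6.90e-05 ± 1.64e-05 and a standardised difference of -2.85 (limma adjusted p = 0.227, unadjusted p = 0.00461). Its direction turned under quantile normalization, to 2.50e-05. Over the 8 arrays the values of both probe sets correlated at r = 0.725 (Spearman's rho = 0.810), with exact permutation p of 0.0428 and 0.0218, or 0.193 and 0.0980 after adjustment over the 9 pairs of probe sets within a gene. Without the 2 arrays farthest from the median, r was 0.680. The relation rests on the group difference, since with the group means taken off it was 0.0206.

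The promoter windows of both genes are shown as a description, and a relation to the signs of the isozymes' differences was not tested. The sequences come from RefSeq, build GRCr8, and give the 250 bases before the transcription start, 5′ to 3′ on the gene's strand, with capitals for any match to the motifs searched. Pck1's lies at chr3:182348322-182348571 (+) and Pck2's at chr15:32997603-32997852 (+).
Pck1: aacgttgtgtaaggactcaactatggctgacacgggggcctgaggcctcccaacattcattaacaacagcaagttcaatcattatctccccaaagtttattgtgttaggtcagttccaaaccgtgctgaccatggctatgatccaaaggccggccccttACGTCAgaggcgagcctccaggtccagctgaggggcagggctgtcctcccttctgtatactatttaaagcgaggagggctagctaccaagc
Pck2: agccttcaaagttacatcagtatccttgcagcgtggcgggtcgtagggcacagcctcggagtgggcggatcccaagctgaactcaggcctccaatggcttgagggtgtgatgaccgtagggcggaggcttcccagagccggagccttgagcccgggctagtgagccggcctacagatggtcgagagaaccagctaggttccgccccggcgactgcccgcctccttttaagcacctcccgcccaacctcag
The motifs, searched on both strands in these bases and the 50 that follow, were the cAMP response element core TGACGT, the forkhead motif GTAAACA, the insulin response motif CAAAACA, the hypoxia response core ACGTG and the glucocorticoid receptor site AGAACA. The Pck1 window held TGACGT on the reverse strand, from base -91 to -86 relative to the start. The Pck2 window held none of the 5 motifs.

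Of the 10 members, 7 had a promoter window in the RefSeq table. Of these, Pck1, Slc37a4 and Ppargc1a held TGACGT, 3 genes counted by any of their windows. Of all 33469 windows of 300 bases, counted by window and not by gene, 7.94% hold it. The other motifs were in none of the members' windows, and in 3.78% (GTAAACA), 6.28% (CAAAACA), 19.3% (ACGTG) and 20.7% (AGAACA) of all windows. Slc37a4 had 2 overlapping windows that both held the same match. The first, at chr8:53619775-53620024 (+), is given here up to its start, with that of Ppargc1a at chr14:63634058-63634307 (+).
Slc37a4: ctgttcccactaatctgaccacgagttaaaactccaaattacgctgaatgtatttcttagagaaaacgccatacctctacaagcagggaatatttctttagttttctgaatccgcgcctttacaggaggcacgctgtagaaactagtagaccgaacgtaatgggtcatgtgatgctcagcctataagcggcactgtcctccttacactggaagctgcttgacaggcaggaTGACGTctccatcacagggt
Ppargc1a: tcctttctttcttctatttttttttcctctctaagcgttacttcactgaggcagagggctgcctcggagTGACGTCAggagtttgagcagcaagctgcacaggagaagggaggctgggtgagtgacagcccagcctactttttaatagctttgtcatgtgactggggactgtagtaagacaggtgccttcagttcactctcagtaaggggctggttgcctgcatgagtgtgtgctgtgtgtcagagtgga
In the first Slc37a4 window the match ran from base -20 to -15, and in the second it ran from -203 to -198. In Ppargc1a the motif was present on both strands as overlapping matches, from -181 to -176 and from -179 to -174. A match describes letters in the window and is not evidence of binding in these livers. Bases farther upstream were not searched, so a motif absent from a window may lie outside it.

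Later steps of the pathway were represented by Fbp1 and Slc37a4. Fbp1, the fructose bisphosphatase, read from 13.363153 to 13.363169 in iron-deficient livers and from 13.363162 to 13.363177 in control livers. The groups overlapped, and the difference of -5.74e-06 ± 5.01e-06 (SE) had a limma adjusted p of 0.734. Fbp1 stood at rank 108 from the top on every iron-deficient array and at rank 109 on every control array, so its values had no spread within groups under quantile normalization, where the difference was 0.00160 (limma adjusted p = 9.42e-12). With Hamp removed first, the limma adjusted p was 1.00.

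Slc37a4, the transporter of glucose 6-phosphate into the endoplasmic reticulum, read 11.97339, 11.97300, 11.97312 and 11.97349 in iron-deficient livers, against 11.97370, 11.97383, 11.97412 and 11.97353 in control livers. All 4 iron-deficient livers lay below all controls, though iron-deficient replicate 4 and control replicate 4 were close. The difference was -5.47e-04 ± 1.61e-04 (SE), a standardised difference of -2.29 (95% interval -3.91 to -0.674), with a limma adjusted p of 0.304 and an unadjusted p of 0.0127. It became 3.00e-04 under quantile normalization and was -2.32e-04 with Hamp removed first. The gene of the glucose-6-phosphatase catalytic subunit, G6pc1, which works with this transporter, is annotated to 4 probe sets that each carry 3 symbols, and was therefore not analysed here.

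**Figure D3:**
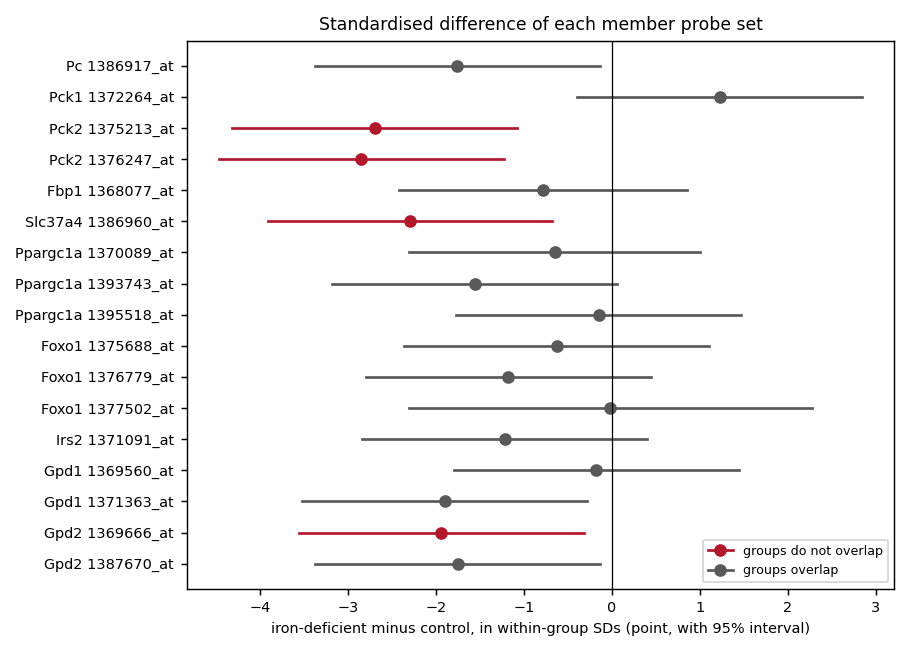
Standardised difference between iron-deficient and control livers (horizontal axis, in within-group SDs) for each of the 17 member probe sets (rows), as points with 95% intervals from limma. Red marks the 4 probe sets whose groups do not overlap, which lie between -2.85 and -1.94, and Pck1 at 1.23 is the only point above 0.

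Among the regulators, Ppargc1a had 3 probe sets, all with lower means in iron-deficient livers as deposited and with very different spreads. Probe set 1393743_at read 7.15116, 7.15022, 7.15041 and 7.15046 in iron-deficient livers, against 7.15088, 7.15125, 7.15110 and 7.15096 in control livers. Iron-deficient replicates 2, 3 and 4 lay below all controls and replicate 1 among them. The difference was -4.89e-04 ± 2.12e-04 (SE), a standardised difference of -1.56 (limma adjusted p = 0.454, unadjusted p = 0.0567). Without iron-deficient replicate 1 it was -6.88e-04, a standardised difference of -4.60, with a limma adjusted p of 0.168. That fit was the extreme of those with 1 array left out. Their standardised differences ran from -4.60 to -1.27 and their limma adjusted p from 0.168 to 0.700. The other Ppargc1a probe sets differed by -4.29e-06 ± 1.94e-05 (1395518_at) and -3.11e-06 ± 3.31e-06 (1370089_at), with overlapping groups. Probe set 1370089_at, with a mean of 5.996 in both groups, lay below the 25th percentile of probe set means (6.548).

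Foxo1, a forkhead transcription factor that insulin signalling keeps inactive, also had 3 probe sets. Probe set 1376779_at read 8.22921, 8.22835, 8.22831 and 8.22855 in iron-deficient livers, against 8.22864, 8.22935, 8.22935 and 8.22890 in control livers. As with Ppargc1a, iron-deficient replicate 1 lay among the controls and the other 3 below them. The difference was -4.52e-04 ± 2.60e-04 (SE), a standardised difference of -1.17 (limma adjusted p = 0.577). Without iron-deficient replicate 1 it was -6.54e-04 (limma adjusted p = 0.354), the extreme of the fits with 1 array left out. Across those fits the limma adjusted p ran from 0.354 to 0.841. The other Foxo1 probe sets differed by -1.67e-06 ± 1.93e-06 (1375688_at, mean 6.439 in both groups and so below the 25th percentile) and -1.83e-08 ± 9.78e-07 (1377502_at).

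Irs2, an adaptor of the insulin receptor, read 7.16843, 7.16850, 7.16842 and 7.16828 in iron-deficient livers, against 7.16849, 7.16849, 7.16851 and 7.16846 in control livers. Iron-deficient replicate 2 lay among the controls and the other 3 below all of them, replicate 4 farthest. The difference was -8.03e-05 ± 4.47e-05 (SE), a standardised difference of -1.22 (limma adjusted p = 0.560, unadjusted p = 0.118), and it was -3.86e-05 without iron-deficient replicate 4 and -1.12e-04 without replicate 2.

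The glycerol phosphate dehydrogenases had lower means in iron-deficient livers at all 4 probe sets as deposited, though both Gpd1 probe sets turned higher under quantile normalization. Gpd1, the cytosolic NAD-linked enzyme, read 12.08792, 12.08765, 12.08724 and 12.08750 at probe set 1371363_at in iron-deficient livers, against 12.08780, 12.08801, 12.08808 and 12.08817 in control livers. Iron-deficient replicate 1 lay above control replicate 1, and the other 3 lay below all controls. The difference was -4.38e-04 ± 1.56e-04 (SE), a standardised difference of -1.90 (limma adjusted p = 0.379, unadjusted p = 0.0280). It was 8.35e-04 under quantile normalization. The second Gpd1 probe set, 1369560_at, differed by -2.87e-05 ± 1.09e-04 with overlapping groups (limma adjusted p = 0.958). Its order of the 8 arrays was not that of the first (Spearman's rho = 0.0714, exact permutation p = 0.882).

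Gpd2, the FAD-linked enzyme of the inner mitochondrial membrane, read 7.61801, 7.61826, 7.61781 and 7.61775 at probe set 1369666_at in iron-deficient livers, against 7.61836, 7.61851, 7.61918 and 7.61832 in control livers. All iron-deficient livers lay below all controls, of which replicate 3 was the highest. The difference was -6.35e-04 ± 2.21e-04 (SE), a standardised difference of -1.94 (95% interval -3.56 to -0.317), with a limma adjusted p of 0.367 and an unadjusted p of 0.0259. Probe set 1387670_at read 7.11135, 7.11151, 7.11127 and 7.11131 in iron-deficient livers, against 7.11161, 7.11150, 7.11178 and 7.11145 in control livers. Iron-deficient replicate 2 lay above control replicates 2 and 4, and the other 3 lay below all controls. The difference was -2.25e-04 ± 8.69e-05 (SE), a standardised difference of -1.75 (limma adjusted p = 0.408, unadjusted p = 0.0379). Of the 9 pairs of probe sets within a gene, the Gpd2 pair was the most alike over the 8 arrays (r = 0.945, exact permutation p = 0.00117, adjusted p = 0.0105, and Spearman's rho = 0.857, p = 0.0107, adjusted p = 0.0964). It was 0.855 without the 2 arrays farthest from the median and 0.886 with the group means taken off.

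Genes around the pathway were read from 7 lists of 117 symbols, of which 106 were measured, each through the probe set whose mean was highest. Of these, 58 were lower and 48 higher in iron-deficient livers, against 53.0% of all genes lower. None passed in limma, against 0.0422% of all genes. At an unadjusted limma p under 0.05 there were 18, 10 higher and 8 lower, against 13.2% of all genes in either direction. As deposited, the median standardised difference was -0.114 over the related genes and -0.0727 over all genes. It was -1.49 over the 10 members by the same choice of probe set, of which 9 were lower. The members' directions also moved with the scaling. Under quantile normalization, these probe sets of Pck1, Pc, Fbp1, Slc37a4, Ppargc1a and Gpd1 were higher, and those of Pck2, Foxo1, Irs2 and Gpd2 lower. The lists' medians had no fixed sign, running from -0.307 to 0.137 as deposited, from -0.0334 to 1.06 under quantile normalization, from -0.592 to 0.242 with Hamp removed first and from -0.0217 to 0.172 under median centring.

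**Figure D4:**
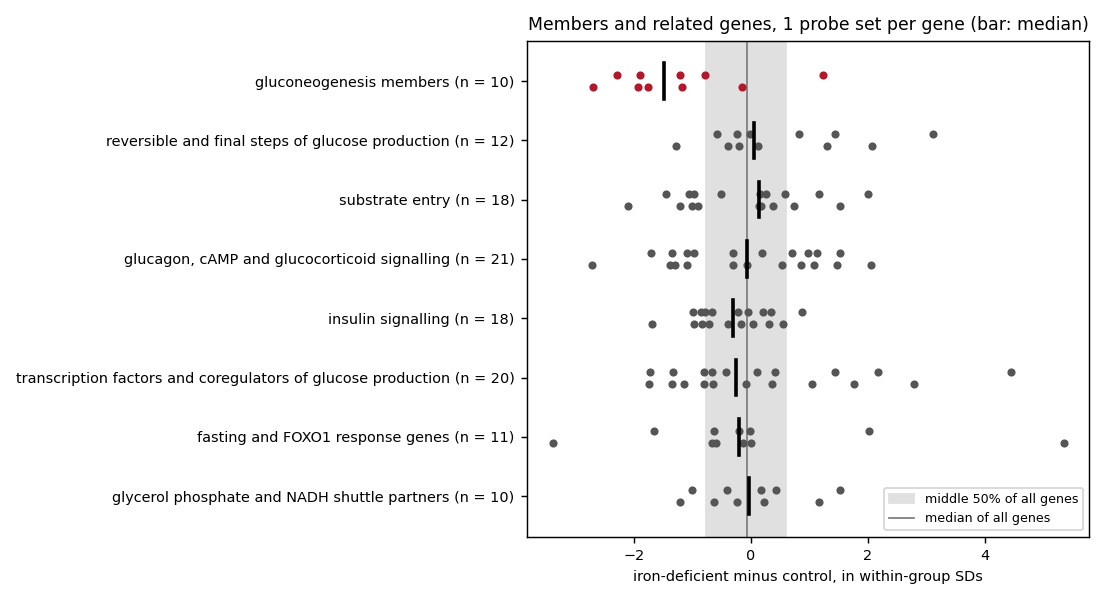
Standardised difference between iron-deficient and control livers (horizontal axis, in within-group SDs) for the 10 members (red) and for related genes (grey), 1 probe set per gene and 1 row per list, with the list's median as a black bar. The grey band holds the middle 50% of all genes. All values are as deposited. On that scale the members' median of -1.49 lies left of the band. The medians of the 7 lists, from -0.307 to 0.137, lie within it.

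The list of reversible and final steps of glucose production also held lactate and malate dehydrogenases, the glucose transporter Slc2a2, G6pc3 and Fbp2, and 6 of its 12 measured genes were lower. Pgam1, a phosphoglycerate mutase, differed by 4.18e-05 ± 9.13e-06 with separate groups (limma adjusted p = 0.201), and Tpi1, the triose phosphate isomerase, by 3.42e-05 ± 1.12e-05 (limma adjusted p = 0.342). Substrate entry had 8 of 18 genes lower. Mpc2, a subunit of the mitochondrial pyruvate carrier, differed by -6.41e-05 ± 2.07e-05 and Aqp9, the hepatic glycerol channel, by 2.57e-04 ± 8.71e-05. Partners of glycerol phosphate and the NADH shuttles had 5 of 10 lower, with the aspartate aminotransferase gene Got1 at 0.00698 ± 0.00309 and the aspartate-glutamate carrier gene Slc25a13 at -5.65e-06 ± 3.22e-06.

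In glucagon, cAMP and glucocorticoid signalling 11 of 21 genes were lower. Sik2, a salt-inducible kinase that acts on CREB coactivators, differed by -1.48e-04 ± 3.67e-05 with separate groups (limma adjusted p = 0.248), and Prkar1a, a regulatory subunit of protein kinase A, by 1.87e-05 ± 6.20e-06. Insulin signalling had 12 of 18 genes lower, with the kinases Akt1 at -3.75e-05 ± 1.49e-05 and Gsk3a at -1.51e-05 ± 1.04e-05. Transcription factors and coregulators had 11 of 20 lower. Nr0b2, a nuclear receptor without a DNA-binding domain that represses other receptors, differed by 0.0664 ± 0.0101 (limma adjusted p = 0.112) and Prkaa1, a catalytic subunit of AMP-activated kinase, by 8.58e-05 ± 2.08e-05, both with separate groups.

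The fasting and FOXO1 response list had 8 of 11 genes lower and held both extremes of the related genes. Igfbp1, an insulin-repressed FOXO1 target that binds insulin-like growth factors, read 7.381, 7.326, 7.346 and 7.330 in iron-deficient livers, against 7.208, 7.238, 7.226 and 7.249 in control livers. Its groups were separate and the standardised difference was 5.35 (limma adjusted p = 0.0735). Sesn3, a sestrin, read 6.64754, 6.64755, 6.64754 and 6.64751 in iron-deficient livers, against 6.64759, 6.64757, 6.64756 and 6.64757 in control livers. It was lower in all iron-deficient livers, by a standardised difference of -3.39 (limma adjusted p = 0.168).

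By Pearson's r over the 8 arrays, the genes most like 3 of the members were found among 12144 other genes with a mean above the 25th percentile. For Pck1 these were Myd88 (r = 0.971), Ino80d (0.952) and Col8a1 (0.943), and for Irs2 they were Abhd5 (0.977), Mad2l1bp (0.961) and Dnaaf10 (0.957). For Ppargc1a, read at probe set 1395518_at, they were Unc5c (0.959), Phykpl (0.947) and Slc20a2 (0.943). With 8 arrays and this many genes, such values are a description of likeness only.

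Most markers of endothelial, stellate and Kupffer cells had higher means in iron-deficient livers, though no marker passed the threshold. Of all 14217 genes, 6683 had higher means and 486 were higher with separate groups. Endothelial markers were higher in 5 of 6 genes, 3 of them with separate groups (Stab2, Flt1 and Lyve1), and their summed log2 levels ran from 53.135 to 53.137 in iron-deficient livers and from 53.131 to 53.132 in control livers. Stellate cell and fibroblast markers were higher in 4 of 5, 3 with separate groups (Lrat, Dcn and Col3a1), with sums from 39.805 to 39.817 in iron-deficient livers and from 39.799 to 39.803 in control livers. Kupffer cell and macrophage markers were higher in 5 of 5, but the groups were separate in 1 alone, Lyz2, whose difference of 0.00597 makes up nearly all of that of the sum (46.073 to 46.078 in iron-deficient livers and 46.069 to 46.072 in control livers). Since spreads vary so widely between probe sets, each sum is carried by its few most variable genes. Hepatocyte markers were lower in 4 of 7 measured genes and higher in 3. The groups were separate in 1 of them, Serpina1, which was higher in iron-deficient livers, by 2.25e-07. Hepatocyte sums ran from 98.68094 to 98.68112 in iron-deficient livers and from 98.68090 to 98.68107 in control livers. Cholangiocyte markers were higher in 1 of 3, lymphocyte markers in 2 of 4 and erythroid markers in 1 of 2 genes, with overlapping sums. The difference between 3′ and 5′ control probe sets, a sign of RNA quality, averaged 1.407 ± 7.95e-04 in iron-deficient livers and 1.408 ± 8.89e-04 in controls for actin (SD, n = 4 each). For Gapdh it averaged 1.16963 ± 3.44e-05 in iron-deficient livers and 1.16974 ± 8.63e-05 in controls, lower in the same direction and with overlapping groups. The part of these differences in the lower values of the gluconeogenesis genes was not tested, and in whole liver fewer cells of a type and less RNA per cell cannot be told apart.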

How the data were processed

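Liver RNA was measured on 4 arrays for the iron-deficient diet and 4 for the control diet. The authors deposited 1 log2 value per probe set and array, a unit read from the values (5.32 to 16.1, array medians from 7.1195 to 7.1205). The summary of probes and normalization are not given in the sources used here. Of 31099 probe sets, 57 controls were left out. Genes were named through the platform annotation with symbols updated by gene identifier, and 20826 probe sets had 1 symbol.

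All 31042 probe sets were fitted in limma 3.58.1 (lmFit, eBayes; R 4.3.3), iron-deficient minus control, without a block, and adjusted p-values cover all of them at a threshold of 0.05. The script was tested on simulated data. Members, lists and naming rule (the 2 genes of each list with the smallest p) were chosen with earlier results of these data known. The labels describe biological replicates, each read here as a liver, and p-values measure the spread between these 4 and 4 replicates. Same-numbered arrays did not deviate together (correlations of -0.111, 0.0245, -0.0251 and -0.0773), so the numbers were not taken as pairs. Alternatives were quantile normalization with and without Hamp, median centring, leaving out dim probe sets or each array, a replicate block, other variance models and the mean of a gene's probe sets. The number of arrays limits the precision.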

Additional observations from a re-analysis of the deposited data

How the results depend on the processing

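Of all probe sets, 10 passed as deposited, and 1093 did under quantile normalization, 83 with Hamp removed first, 63 under median centring, 1 with the replicate block and 4 to 27 with 1 array left out (5, 27, 4, 6 and 4 without iron-deficient replicates 2, 3 and 4 and control replicates 2 and 3). No member passed under any alternative but quantile normalization, where 1 did (Fbp1). The count of members with separate groups was 4 as deposited, 2 under quantile normalization, 0 with Hamp removed first, 0 under median centring, and 4 to 8 with 1 array left out. Lower members numbered 7 under quantile normalization, 13 with Hamp removed first and 10 under median centring, and 13 to 16 with 1 array left out. Lower genes of the related lists, 58 as deposited, were 30 under quantile normalization, 48 with Hamp removed first, 27 under median centring and 53 to 62 with 1 array left out. The replicate block left 16 members lower and none called.

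Direction turned under quantile normalization for Pc (3.48e-04), Pck2 1376247_at (2.50e-05), Fbp1 (0.00160), Slc37a4 (3.00e-04), Ppargc1a 1395518_at (6.48e-05), Foxo1 1377502_at (2.94e-05) and Gpd1 (5.46e-04 for 1369560_at, 8.35e-04 for 1371363_at). With Hamp left out it turned for Gpd1 1369560_at alone (2.24e-04). Under median centring the added constant turned it for Fbp1 (4.48e-05), Ppargc1a (4.75e-05 for 1370089_at, 4.63e-05 for 1395518_at), Foxo1 (4.89e-05 for 1375688_at, 5.06e-05 for 1377502_at) and Gpd1 1369560_at (2.19e-05). Leaving out 1 array gave -2.00e-05 to 3.77e-06 for Ppargc1a 1395518_at, -6.45e-07 to 2.74e-07 for Foxo1 1377502_at and -8.70e-05 to 5.03e-05 for Gpd1 1369560_at, and turned no other member. Of the 8 probe sets that turned under quantile normalization, Gpd1 1369560_at alone stayed positive once Hamp was removed, Fbp1 came to a difference of 0 and the others were negative again (Pc -3.55e-04, Gpd1 1371363_at -4.15e-04). For Gpd1 1369560_at the cause was not tested. The variance models, the filter and the mean of a gene's probe sets changed no member's direction or call.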

Other observations

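Across different member genes, the most alike pair of probe sets over the 8 arrays was Ppargc1a 1393743_at with Foxo1 1376779_at, picked here after its values were seen. Pearson's r was 0.936 and Spearman's rho 0.905, with exact permutation p of 0.00203 and 0.00456, or 0.258 and 0.193 after adjustment over 127 such pairs. Without the 2 arrays farthest from the median of Ppargc1a, r was 0.887. Both probe sets had lower means in iron-deficient livers. Their r with the group means taken off was not computed, so the share of the group difference in it is not known. In both probe sets iron-deficient replicate 1 had the highest iron-deficient value. In each of the other 4 probe sets of these genes it was also the highest of the iron-deficient livers. The same held for Pc, Fbp1 and both Gpd1 probe sets, so this order is not particular to Ppargc1a and Foxo1. In the remaining member probe sets replicate 1 was not the highest, and in Pck2 1375213_at it was the lowest.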
